A study of Mus musculus with 8 samples.

Results

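Fibroblast growth factor 21 (FGF21), other fibroblast growth factors and their receptors were followed in the brown fat of mice lacking Prdm16, a transcriptional regulator of brown fat identity, and of wild-type mice. Probes were chosen by name: every non-control probe whose gene name on the array was Fgf21, Fgf1, Fgf2, Fgf9, Fgf10, Fgf13, Fgfr1, Fgfr2, Fgfr3 or Klb. This gave 15 probes of 10 genes among 39429 probes. All 15 stayed among the 26853 probes that passed the filter on dim signal. Expression was measured on 8 2-colour Agilent arrays, each of which set RNA of a Prdm16 knockout (KO) animal's tissue against RNA of wild-type (WT) tissue of the same age. The 4 groups were KO and WT tissue of 6-week-old mice and KO and WT tissue of 11-month-old mice, with 4 arrays per age and the dyes exchanged on 2 of them. The labels call the arrays biological replicates. They give no driver for the deletion, no sex, no strain and no pooling of animals, so the cells in which Prdm16 was deleted are not stated here. The ages were run as separate batches on separate slides, and age and batch cannot be told apart.

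FGF21 is a hormone-like growth factor, secreted by liver and also by brown fat, that signals through FGF receptors, mainly FGFR1, only where the membrane protein beta-Klotho (encoded by Klb) is present. Most other FGFs act locally: they bind heparan sulfate proteoglycans and the receptor tyrosine kinases FGFR1 to FGFR3, which signal through Grb2, Sos and the ERK kinases. In adipose tissue, FGF1 and FGF10 are known for roles in fat cell formation and remodelling, FGF2 is a growth factor of stromal and endothelial cells, and FGF13 is an intracellular relative that binds sodium channels and is not secreted. The transcription factor ATF4 of the integrated stress response and the nuclear receptor PPAR alpha are textbook activators of Fgf21.

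The upstream sequences of Fgf21, Klb and Fgf10 are shown as those of the hormone, its co-receptor and a ligand called higher at 11 months (RefSeq, build GRCm38.p6, 250 bases before the annotated start, 5′ to 3′ on the gene's strand). The table matched 8 of the 10 genes, with 12 promoters in all. Capitals mark matches to 4 motifs searched on both strands: TGATGNAA, the core of the C/EBP-ATF response element; TGACGTCA, the cyclic AMP response element; the PPAR response element, AGGTCA repeated after 1 base of any kind; and CACGTG, the E-box.
Fgf21, chr7:45615491-45615740, minus strand: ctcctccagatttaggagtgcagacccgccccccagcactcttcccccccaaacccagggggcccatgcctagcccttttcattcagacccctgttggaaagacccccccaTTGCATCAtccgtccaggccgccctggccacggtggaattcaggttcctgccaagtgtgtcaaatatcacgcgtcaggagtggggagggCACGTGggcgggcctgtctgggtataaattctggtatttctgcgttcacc
Klb, chr5:65348161-65348410, plus strand: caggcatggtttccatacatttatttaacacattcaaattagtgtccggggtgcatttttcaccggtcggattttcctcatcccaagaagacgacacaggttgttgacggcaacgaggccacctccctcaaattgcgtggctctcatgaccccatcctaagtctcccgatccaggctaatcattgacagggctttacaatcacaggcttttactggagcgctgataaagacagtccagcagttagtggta
Fgf10, chr13:118714449-118714698, plus strand: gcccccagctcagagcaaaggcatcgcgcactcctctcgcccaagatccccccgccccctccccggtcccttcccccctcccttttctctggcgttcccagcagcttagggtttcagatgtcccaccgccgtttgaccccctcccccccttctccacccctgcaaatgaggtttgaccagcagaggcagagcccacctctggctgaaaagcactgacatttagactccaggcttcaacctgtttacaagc

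The Fgf21 window held 1 match to the C/EBP-ATF core, on the reverse strand and beginning 139 bases before the start, and 1 E-box beginning 50 bases before it. The C/EBP-ATF core was found in 3.45% and the E-box in 6.02% of the 32851 promoter windows of the same length, the cyclic AMP response element in 1.55% and the PPAR response element in 0.0335%. None of the 4 motifs matched in the other 11 windows of the members, which says only that these letters are not in those 250 bases.

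The number of arrays, 4 per age, limits the precision of every value. Of 43020 non-control spots per array, 61.2% to 68.2% per channel were well above background and 0 were saturated. Across probes, which are not independent replicates, r between arrays was 0.487 to 0.677 for the 6-week-old and 0.675 to 0.883 for the 11-month-old set (dye-adjusted log2 ratios). The 10 adipocyte marker genes, 7 of the brown fat programme such as Ucp1 and Cidea and 3 of fat cells in general (Adipoq, Fabp4 and Plin1), were above background in both channels of all 8 arrays. The Prdm16 probe had a log2 ratio below 0 on 7 of 8 arrays, at 0.06 on 6-week-old array 2, and fitted values of -0.58 ± 0.15 (limma, adjusted p = 0.0407) and -0.50 ± 0.15 (adjusted p = 0.0373). The labels do not place this probe inside or outside the deletion. Skeletal muscle markers (20 genes) stood apart between arrays: their median log2 ratio was 0.03, -2.67, 2.42 and -2.87 on 6-week-old arrays 1 to 4 and -0.50, -1.14, -0.27 and 1.72 on 11-month-old arrays 1 to 4. In bulk tissue, fewer cells of a type and less RNA per cell cannot be told apart.

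At 6 weeks, 4 of the 15 member probes were called: Fgf21, Klb and 1 of the 2 Fgf1 probes were higher in KO tissue, and Fgf9 was lower. A probe was called at a Benjamini-Hochberg adjusted p below 0.05 over all 26853 probes in limma. Over all probes 16.6% were called at this age, 9.56% higher and 7.05% lower, so 4 of 15 is to be read against that share. At 11 months 8 member probes were called, 6 higher (Fgf10, Fgf2, Klb and the 3 probes of Fgfr1) and 2 lower (Fgf9 and 1 of 2 probes of Fgfr2). The background was 33.8% of all probes, 17.3% higher and 16.4% lower. The median fitted log2 ratio over the member probes was 0.036 at 6 weeks and 0.040 at 11 months, and over all probes 0.0014 and 0.0092. KO and WT channel levels did not overlap for 4 member probes at 6 weeks and 3 at 11 months, with 19.6% and 25.2% of all probes in that class. The ratio had 1 sign on all 4 arrays for 9 member probes at 6 weeks and 8 at 11 months, with 34.7% and 50.1% of all probes. Without 6-week-old arrays 2 and 4, whose skeletal muscle medians were the largest in size, 0 member probes were called at 6 weeks (4 had an unadjusted p below 0.05 in limma) and 7 at 11 months; this alternative was chosen after seeing the data. With 2 arrays of that age, 501 of all probes were called at 6 weeks, against 4459 with 4. The 6-week values themselves were then 1.04 for Fgf21 (0.81 on all arrays), 0.78 for the brighter Fgf1 probe (0.82), 0.43 for Klb (0.51) and -1.03 for Fgf9 (-1.11). All ratios below are log2 of KO over WT with the SE of the model and n = 4 arrays per age. Channel levels are log2 intensities that serve only to compare groups for one probe.

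**Figure D1:**
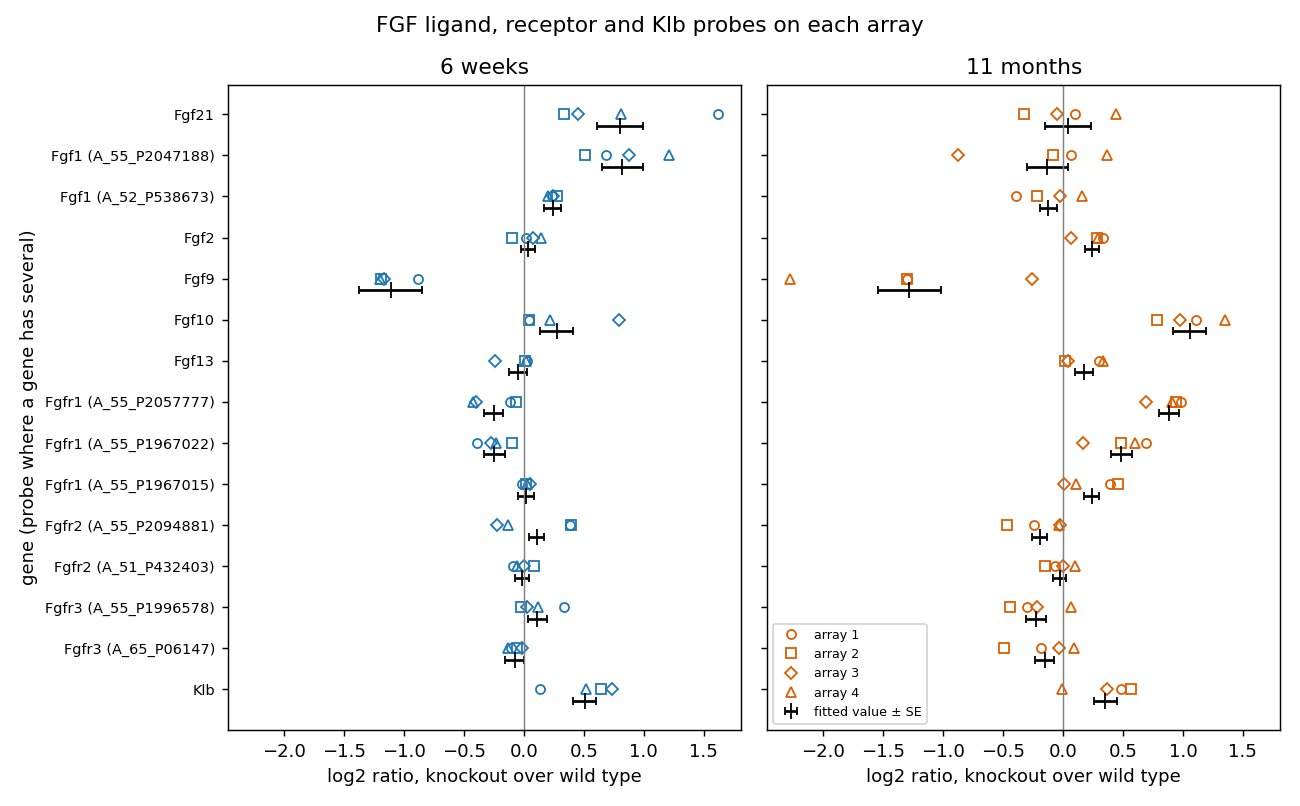
Log2 ratio of knockout over wild type (x axis) for each of the 15 probes (y axis) on each of the 4 arrays of 6-week-old (left) and 11-month-old (right) mice, with the fitted value ± SE in black. Fgf21 lay above 0 on all 4 arrays at 6 weeks and on both sides of 0 at 11 months, Fgf9 lay below 0 on all 8 arrays, and Fgf10 and Fgfr1 (A_55_P2057777) lay above 0 on all 4 arrays at 11 months.

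Fgf21 mRNA was higher in KO tissue at 6 weeks, near the lower limit of detection. Its probe (A_52_P235347, chromosome 7, 52869305 to 52869364 of build mm9, the build of all probe positions here) had KO levels of 8.12, 6.91, 7.26 and 7.45 on 6-week-old arrays 1 to 4 and WT levels of 6.50, 6.57, 6.81 and 6.64. The log2 ratios were 1.62, 0.34, 0.45 and 0.81. The KO channel was thus the brighter on 4 of 4 arrays and the groups did not overlap, with array 1 the largest. The WT channel was not well above background on any of these arrays, and the KO channel was on 3 of 4. The dim WT channel was therefore set to the lowest signal measurable on each array, or to the WT value where that was higher. Against the resulting WT mean of 6.74 (measured 6.63), the KO mean of 7.44 was 1.62-fold higher. This floor allows for the dim channel only and is not a lower limit on the difference between the groups. The fitted value was 0.81 ± 0.19 (adjusted p = 0.0294 in limma), with a 95% interval of 0.36 to 1.25.

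The Fgf21 call was narrow. It ended without 6-week-old array 1 (0.54, adjusted p = 0.0996), array 3 (adjusted p = 0.0699) or array 4 (adjusted p = 0.0947), with median centring in place of loess (adjusted p = 0.0678) and when each age was modelled alone (adjusted p = 0.0688). Its size depends on the treatment of background: it was 1.69 without the offset added to the intensities, 1.28 in the deposited log2 ratios and 3.05 in the scanner software's ratio, and the sign was positive under every setting tried. Without arrays 2 and 4, whose skeletal muscle medians were -2.67 and -2.87, the value was 1.04 (adjusted p = 0.0742).

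At 11 months the Fgf21 ratios were 0.10, -0.32, -0.05 and 0.44, and the channel levels of KO (6.72 to 7.23) and WT (6.78 to 7.21) overlapped. The WT channel was above background on 2 arrays and the KO channel on 1. The fitted value was 0.04 ± 0.19 (adjusted p = 0.900), with a 95% interval of -0.41 to 0.49. The change between ages, 11 months minus 6 weeks, was -0.77 ± 0.27 (adjusted p = 0.0942), so a difference between the ages was not shown for Fgf21. It passed without 6-week-old array 2 (-1.02, adjusted p = 0.0350). Over the 8 dye-adjusted log2 ratios, the genes with the pattern most like that of Fgf21 were Foxp4 (r = 0.98), Krt36 (r = 0.97), Ppp1r26 (r = 0.97), Col12a1 (r = 0.97) and Wwp2 (r = 0.96), picked as the highest among all probes and given with no test. The likeness rests in part on Fgf21 channels that were not above background.

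Klb, which encodes the co-receptor that FGF21 needs, was higher in KO tissue at both ages. Its probe (A_51_P464394, chromosome 5, 65774926 to 65774985) was well above background in every channel. At 6 weeks the log2 ratios were 0.13, 0.64, 0.74 and 0.52 and the fitted value was 0.51 ± 0.10 (1.42-fold, adjusted p = 0.0149). The KO level was the higher on 4 of 4 arrays, and the groups overlapped only through array 1 (KO 11.8, WT up to 11.9). At 11 months the ratios were 0.48, 0.57, 0.37 and -0.01, and the fitted value was 0.35 ± 0.10 (1.28-fold, adjusted p = 0.0257). Array 4 of that age had equal channels, and 3 of 4 arrays had the higher level in KO tissue. The channel level itself averaged 11.7 ± 0.11 (SD, n = 4) in WT and 12.3 ± 0.30 in KO tissue at 6 weeks, and 11.0 ± 0.14 and 11.3 ± 0.37 at 11 months, where age and batch cannot be told apart. The ages did not differ past the test (-0.15 ± 0.14, adjusted p = 0.477, 95% interval -0.47 to 0.16). The 6-week call ended without 6-week-old array 2 (adjusted p = 0.0536) or 3 (adjusted p = 0.0622), and the 11-month call without 11-month-old array 1 (adjusted p = 0.0823), 2 (adjusted p = 0.108) or 3 (adjusted p = 0.102) and without the dye coefficient (adjusted p = 0.0544).

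Fgf1 encodes a ligand of all FGF receptors. Its brighter probe (A_55_P2047188) had log2 ratios of 0.69, 0.51, 0.88 and 1.21 at 6 weeks, with KO levels of 12.2 to 12.9 and WT levels of 11.7 to 12.1 that did not overlap. The fitted value was 0.82 ± 0.17 (1.77-fold higher in KO, adjusted p = 0.0200). At 11 months the ratios were 0.06, -0.08, -0.87 and 0.37 on both sides of 0, with a fitted value of -0.13 ± 0.17 (adjusted p = 0.606). The low value came from array 3, without which the value was 0.10 (adjusted p = 0.659), and without array 4 it was -0.40 (adjusted p = 0.0290). The 2 ages differed by -0.95 ± 0.25 (adjusted p = 0.0358). The second probe (A_52_P538673) lay closer to background but above it on all arrays, with ratios of 0.20 to 0.28 on all 4 arrays at 6 weeks (0.24 ± 0.07, adjusted p = 0.0545) and -0.40, -0.22, -0.03 and 0.15 at 11 months (-0.12 ± 0.07, adjusted p = 0.223). It differed between the ages in the same direction (-0.36 ± 0.10, adjusted p = 0.0439), and the 2 probes differed in size. The 6-week call of the brighter probe ended without any 1 of the 6-week-old arrays 1 to 4 (adjusted p = 0.0870, 0.0594, 0.0588 and 0.0719), and median centring also ended it (adjusted p = 0.0625). The age difference of each Fgf1 probe passed in 1 of the 8 fits that left out 1 array.

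Fgf9, which encodes a secreted ligand of FGFR2 and FGFR3, was lower in KO tissue at both ages and on all 8 arrays. The probe (A_55_P2015994, chromosome 14, 58728897 to 58728956) was well above background in the WT channel of all 8 arrays and in the KO channel of none. It thus passed the filter on dim signal through the WT channels alone, the group in which it was higher. At 6 weeks the ratios were -0.88, -1.19, -1.17 and -1.20, with WT levels of 7.54 to 7.78 and KO levels of 6.47 to 6.66. These groups lay apart, and with the same floor for the dim KO channel Fgf9 was 2.09-fold lower in KO tissue. The fitted value was -1.11 ± 0.26 (adjusted p = 0.0285 in limma), with a 95% interval of -1.72 to -0.50. At 11 months the ratios were -1.31, -1.30, -0.26 and -2.28. The floor left the KO mean at its measured 6.93, and Fgf9 was 2.44-fold lower. The fitted value was -1.29 ± 0.26 (adjusted p = 0.00757 in limma), with a 95% interval of -1.89 to -0.68. Array 3 had the smallest and array 4 the largest difference, and the channel levels overlapped through the KO value of array 3 (7.79), itself not above background. The uncorrected KO signals of arrays 3 and 4 were close (62.5 and 60.5), against WT signals of 269 and 567. The KO levels of these 2 arrays (7.79 and 6.84) differed more than the uncorrected signals did. What set them apart was not tested. The ages did not differ past the test (-0.17 ± 0.37, adjusted p = 0.781). Without the offset the fitted values were -2.15 and -2.04, and in the scanner software's ratio -3.86 and -4.61. The 11-month call passed in every alternative run. The 6-week call ended without any 1 of the 6-week-old arrays (adjusted p = 0.0811 to 0.0998) and without 11-month-old array 2 (adjusted p = 0.0517). The model shares 1 estimate of the spread between the ages, whereas the ratios had an SD of 0.15 at 6 weeks and 0.82 at 11 months. The SE is thus wide for the 6-week ratios and narrow for the 11-month ratios, and these calls do not rank the 2 ages.

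**Figure D2:**
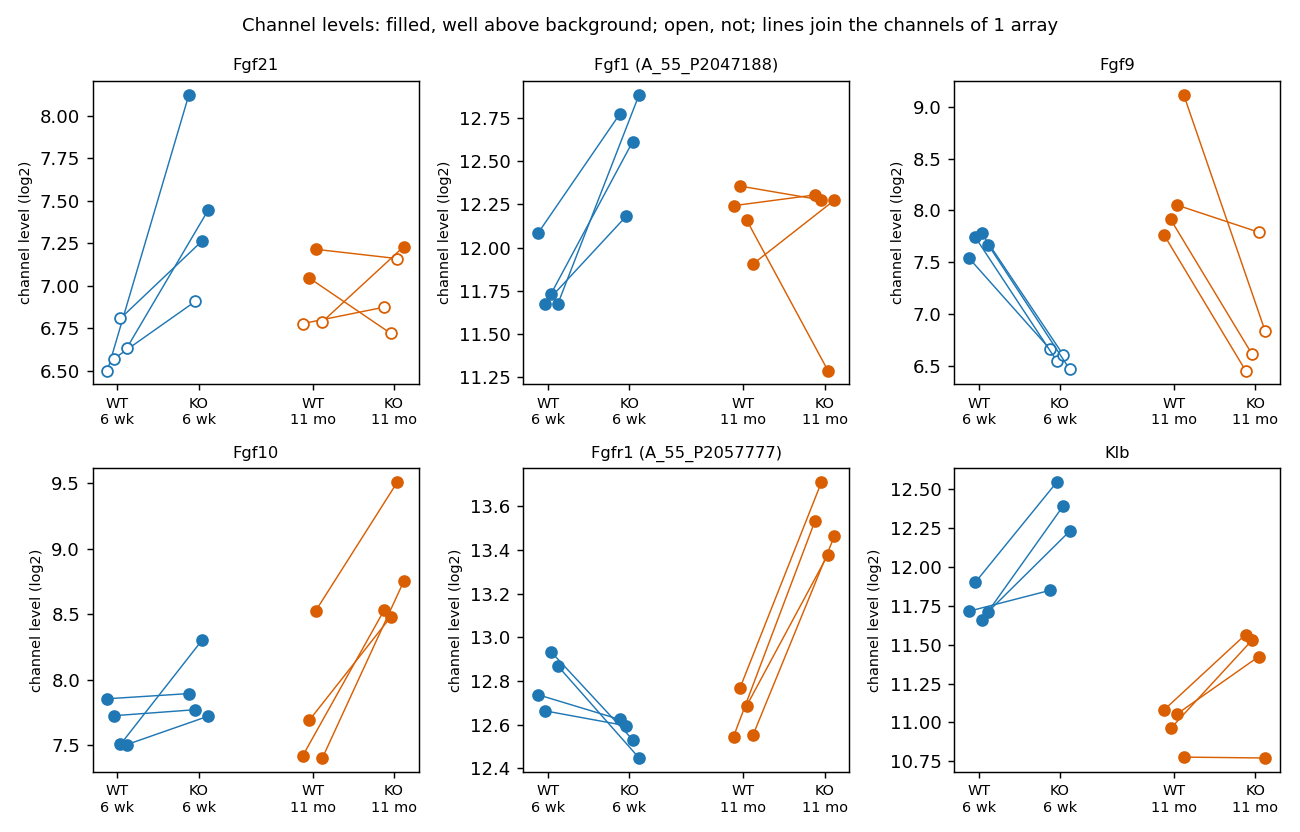
Channel level (log2 intensity, y axis) in wild-type (WT) and knockout (KO) tissue at 6 weeks (blue) and 11 months (orange) for 6 probes; filled points were well above background, open points were not, and a line joins the 2 channels of 1 array. The WT points of Fgf21 at 6 weeks and all KO points of Fgf9 are open, and the KO points of Fgfr1 (A_55_P2057777) at 11 months lie between 13.4 and 13.7, above the WT points.

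Fgf10, a ligand of FGFR2 and FGFR1 made by stromal cells and preadipocytes, was called at 11 months. The probe (A_52_P42269, chromosome 13, 119580365 to 119580424) is carried on 10 spots per array. Its ratios were 1.11, 0.79, 0.98 and 1.35, and the fitted value was 1.06 ± 0.14 (2.08-fold higher in KO, adjusted p = 0.000913). KO levels were 8.53, 8.48, 9.51 and 8.75 against WT levels of 7.42, 7.69, 8.53 and 7.40. The KO level was the higher on 4 of 4 arrays, and the groups overlapped because both channels of array 3 stood above those of the other arrays. At 6 weeks the ratios were 0.04, 0.05, 0.79 and 0.22 (0.27 ± 0.14, adjusted p = 0.206), the largest on array 3. The ages differed by 0.78 ± 0.19 (adjusted p = 0.0308). This difference passed in 2 of the 8 fits that left out 1 array, ending without any 1 of the 6-week-old arrays 1, 2 and 4 (adjusted p = 0.0760, 0.0891 and 0.0818) or of the 11-month-old arrays 1, 3 and 4 (adjusted p = 0.0700, 0.0630 and 0.0605). The 11-month call passed under every alternative run.

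Fgf2 was at the limit of detection. Its probe (A_51_P399845, chromosome 3, 37247934 to 37295153, a span longer than the 60-base probe) is carried on 10 spots per array. Among the probes called at 11 months, this one is free of stop codons in 3 of the 3 reading frames. The Fgfr1 probes A_55_P1967022 and A_55_P1967015 are each free of them in 2, and the other called probes in 1 or 0. No share over all probes was worked out, so these counts do not place a probe in coding sequence. The sequences of the Fgf2 probe and of A_55_P1967022 are shown as examples:
Fgf2 A_51_P399845: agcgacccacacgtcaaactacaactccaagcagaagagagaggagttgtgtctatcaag
Fgfr1 A_55_P1967022: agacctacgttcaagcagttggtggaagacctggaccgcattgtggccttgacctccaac

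At 6 weeks neither channel of the Fgf2 probe was above background on any array (ratios -0.10 to 0.15, fitted 0.04 ± 0.06, adjusted p = 0.706). At 11 months the KO channel was above background on 4 of 4 arrays and the WT channel on none. These 4 were the only channels of 16 above background, and on array 4 a share of 0.5 of the spots was. The probe thus passed the filter on dim signal through the 11-month KO channels alone, the group in which it was higher. Its detection in that group is therefore no separate support for the difference. KO levels were 7.12, 7.08, 6.85 and 6.96 and WT levels 6.79, 6.80, 6.79 and 6.67. The groups did not overlap. The floor for the dim WT channel left its mean at the measured 6.76, and Fgf2 was 1.18-fold higher in KO tissue. The fitted value was 0.24 ± 0.06 (adjusted p = 0.0131 in limma), with a 95% interval of 0.11 to 0.37. This call ended without 11-month-old array 1 (adjusted p = 0.0558) or 4 (adjusted p = 0.0511) and with median centring (0.16, adjusted p = 0.136), and the scanner software's ratio gave 1.96. The ages did not differ past the test (0.21 ± 0.08, adjusted p = 0.116). Fgf13 (A_55_P2139809, chromosome X, 56316415 to 56316474) was above background in 7 of 16 channels. Its ratios ran from -0.24 to 0.02 at 6 weeks (-0.05 ± 0.08, adjusted p = 0.716) and from 0.02 to 0.33 at 11 months (0.17 ± 0.08, adjusted p = 0.125). The scanner software's ratio called it at 11 months (1.10, adjusted p = 0.00690), as did the deposited log2 ratios (0.36, adjusted p = 0.0163).

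Fgfr1, the main receptor through which FGF21 acts on fat cells, was higher in KO tissue at 11 months on all 3 probes, by different amounts. The brightest (A_55_P2057777, chromosome 8, 26685072 to 26685131) had ratios of 0.99, 0.94, 0.69 and 0.91. KO levels were 13.5, 13.7, 13.4 and 13.5 and WT levels 12.5, 12.8, 12.7 and 12.6, with no overlap. The fitted value was 0.88 ± 0.08 (1.85-fold, adjusted p = 0.000196). The probe A_55_P1967022 (26684061 to 26684120) had ratios of 0.69, 0.49, 0.16 and 0.60 (0.49 ± 0.09, 1.40-fold, adjusted p = 0.00455), again with no overlap. The probe A_55_P1967015 (26685820 to 26685879) had ratios of 0.39, 0.46, 0.01 and 0.11 (0.24 ± 0.06, 1.18-fold, adjusted p = 0.0220), and its groups overlapped. Array 3 gave the lowest value of its age on each of the 3 probes. The calls of the first 2 probes passed under every alternative run, and that of the third ended without 11-month-old array 1 (adjusted p = 0.0930), 2 (adjusted p = 0.113) or 4 (adjusted p = 0.0512) and without the dye coefficient (adjusted p = 0.0550).

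At 6 weeks the same 3 Fgfr1 probes were not called. The first had ratios of -0.11, -0.07, -0.40 and -0.42, below 0 on 4 of 4 arrays and with no overlap of levels (-0.25 ± 0.08, adjusted p = 0.0718); it passed when each age was modelled alone (adjusted p = 0.0324) and without 11-month-old array 3 (adjusted p = 0.0472). The second was also below 0 on 4 of 4 arrays (-0.25 ± 0.09, adjusted p = 0.0964), and the third stood at 0.02 ± 0.06 (adjusted p = 0.875). The 2 ages differed by 1.14 ± 0.12 for the first probe (adjusted p = 0.00197) and 0.73 ± 0.13 for the second (adjusted p = 0.0090), and not past the test for the third (0.22 ± 0.09, adjusted p = 0.129). In all, 5 member probes differed between the ages, Fgf10 and 2 of Fgfr1 with the higher and 2 of Fgf1 with the lower value at 11 months, against 17.6% of all probes (7.87% higher, 9.7% lower). With median centring none of the 5 passed (adjusted p = 0.0946 to 0.205), with values of 0.82 for Fgf10, 1.11 and 0.82 for Fgfr1 and -0.95 and -0.35 for Fgf1. Without 6-week-old arrays 2 and 4 the first Fgfr1 probe alone passed (1.14, adjusted p = 0.0333), as did 594 of all probes against 4717 on all arrays. The values of the other 4 were then 0.82 for the second Fgfr1 probe, 0.64 for Fgf10 and -0.91 and -0.36 for Fgf1.

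**Figure D3:**
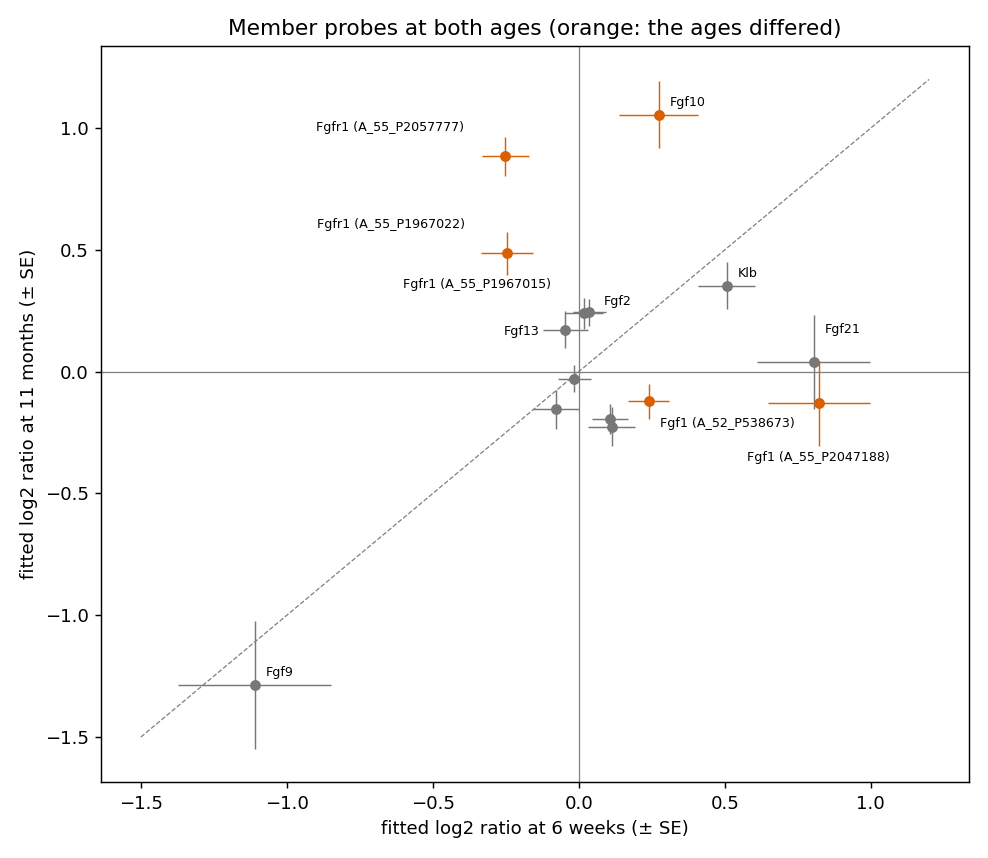
Fitted log2 ratio of knockout over wild type at 6 weeks (x axis) and 11 months (y axis) for the 15 probes, each with its SE; orange marks the 5 probes that differed between the ages, grey the others, and the dashed line equal values. Fgfr1 (A_55_P2057777) lies at -0.25 and 0.88, Fgf10 at 0.27 and 1.06, and Fgf9 near the dashed line at -1.11 and -1.29.

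Fgfr2 encodes the main receptor of FGF10, and Fgfr3 a receptor of FGF9. The brighter Fgfr2 probe (A_55_P2094881, chromosome 7, 137307473 to 137307532) had ratios of 0.39, 0.40, -0.22 and -0.14 at 6 weeks, positive on the arrays with KO tissue in Cy3 and negative on the others, and a fitted value of 0.11 ± 0.06 (adjusted p = 0.276). Its dye coefficient was -0.22. At 11 months the ratios were -0.25, -0.47, -0.02 and -0.04 (-0.19 ± 0.06, 1.14-fold lower in KO, adjusted p = 0.0454). This call ended with median centring (-0.04, adjusted p = 0.757), without the dye coefficient (adjusted p = 0.288) and in 7 of the 8 fits that left out 1 array. The other Fgfr2 probe (A_51_P432403, 137307455 to 137307514), which overlaps the first, was above background in 4 of 16 channels, with fitted values of -0.01 and -0.03. The 2 Fgfr3 probes were not called: A_55_P1996578 (chromosome 5, 34079649 to 34079708) stood at 0.11 ± 0.08 and -0.23 ± 0.08 (adjusted p = 0.0659), and A_65_P06147 (34077856 to 34078090) at -0.08 ± 0.08 and -0.15 ± 0.08 (adjusted p = 0.173).

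Markers of other cell types moved at 11 months beside Fgf10, Fgf2 and Fgfr1. Their counts are to be read against the 33.8% of all probes called at this age. Of 16 fibroblast and preadipocyte markers 11 were higher in KO tissue and none lower, with list medians of 0.55, 0.49, 1.17 and 0.33 on arrays 1 to 4. The median channel level of that list was 10.8 to 11.1 in WT and 11.3 to 12.3 in KO tissue. Col3a1 and Col1a1, fibrillar collagens, rose by 1.90 ± 0.35 (adjusted p = 0.00454) and 1.72 ± 0.37 (adjusted p = 0.00908), and the dermatopontin gene Dpt by 1.63 ± 0.14 (adjusted p = 0.000158). Of 13 macrophage markers 10 were higher and none lower, with medians of 0.14, 0.02, 1.23 and 0.68. Array 3 had the highest median of both lists and the lowest Fgfr1 ratio on each of its probes. Its Fgf2 ratio was also the lowest (0.06, against 0.29 to 0.33), while its Fgf10 ratio (0.98) was within the range of the others. The 10 adipocyte markers split by kind. All 7 genes of the brown programme were called lower, from Ppargc1a (-1.44 ± 0.16, adjusted p = 0.000479) to Ucp1 (-4.05 ± 0.44, adjusted p = 0.000414). The 3 genes that mark fat cells in general were called higher, at 1.49 for Adipoq, 0.68 for Plin1 and 0.50 for Fabp4. Endothelial markers had 2 of 12 higher (16.7%), and nerve and Schwann cell markers 1 higher and 2 lower of 12 (25%), both below the share of all probes. Skeletal muscle markers had none called at either age in limma (1 and 0 at an unadjusted p below 0.05).

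At 6 weeks, beside Fgf21, Klb and Fgf1, the general fat cell genes Fabp4 (0.85 ± 0.08, adjusted p = 0.00165), Plin1 (0.46 ± 0.06, adjusted p = 0.00313) and Adipoq (0.40 ± 0.08, adjusted p = 0.0143) were higher in KO tissue, and none of the 7 brown genes was called. Of 12 endothelial markers 3 were lower (25%, against 16.6% of all probes called at this age). These were Tie1 (-0.42), Flt1 (-0.36) and Pecam1 (-0.28), with list medians of -0.20 to -0.10 over the 4 arrays. Macrophage markers had Cd14 higher (0.90) and Lyz2 lower (-0.29), and nerve and Schwann cell markers Pmp22 higher (0.97) and Ncmap lower (-0.98). Those calls were 15.4% and 16.7% of the measured genes of their lists, near the share of all probes. Of the fibroblast markers Dlk1 was called lower (-1.17) and none higher, with medians of -0.04, -0.17, 0.38 and -0.04, where array 3 was the highest for the list and for Fgf10 (0.79). The part of these cell types in the results at either age was not tested.

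**Figure D4:**
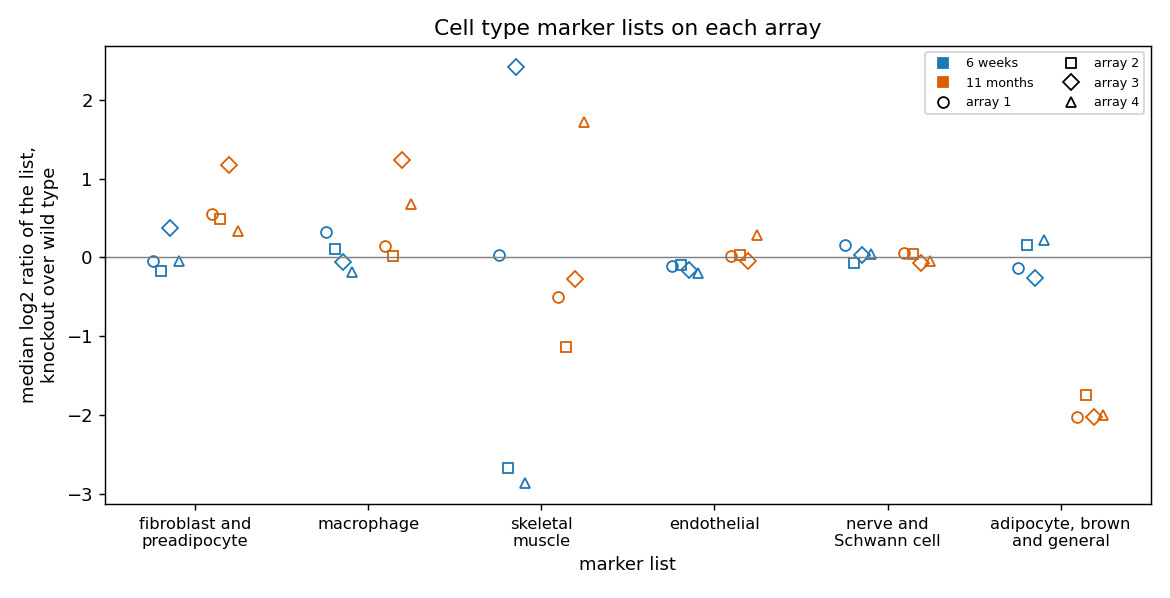
Median log2 ratio of knockout over wild type (y axis) of 6 marker lists (x axis) on each array, 6-week-old in blue and 11-month-old in orange, with 1 symbol per array number. Fibroblast and macrophage medians lie above 0 on all 4 arrays at 11 months, medians of the adipocyte list (7 brown and 3 general genes) lie between -2.03 and -1.75 there, and skeletal muscle medians run from -2.87 to 2.42 at 6 weeks.

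The other secreted FGFs and their accessory receptors were read by list, with each gene read by its kept probe of the highest mean intensity. The lists were not tested as sets, and their counts are to be read against the 16.6% and 33.8% of all probes called at 6 weeks and 11 months. Those shares count every kept probe, dimmer probes of the same gene included, so they are not matched to the lists. Of 13 other FGF ligands 9 were measured. None was called at 6 weeks in limma (0 at an unadjusted p below 0.05), and Fgf18 alone was called at 11 months (0.60 ± 0.10, adjusted p = 0.00284); the list medians were 0.039 and -0.053. Of 10 other receptors, co-receptors and carriers 8 were measured, with 2 higher at 6 weeks (25% of those measured) and 2 higher and 2 lower at 11 months (50%). Fgfr1op, a centrosomal protein gene, changed in opposite directions (0.20 ± 0.06, adjusted p = 0.0490, and -0.18 ± 0.06, adjusted p = 0.0427). Fgfrl1, a receptor-like protein without a kinase domain, rose at both ages (0.61 ± 0.14, adjusted p = 0.0243, and 1.25 ± 0.14, adjusted p = 0.000434). Flrt3, a membrane protein that binds FGF receptors, rose at 11 months (1.16 ± 0.14, adjusted p = 0.000689). Fibp, an intracellular FGF-binding protein, fell by 0.31 ± 0.09 at that age (adjusted p = 0.0282).

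Of 21 genes of FGF receptor signalling, 5 were higher and none lower at 6 weeks (23.8%), and 5 were higher and 3 lower at 11 months (38.1%), with medians of 0.060 and 0.071. Rps6ka3, a kinase downstream of ERK, rose at both ages (0.63 ± 0.13, adjusted p = 0.0175, and 0.56 ± 0.13, adjusted p = 0.0114). The adaptor gene Shc1 also rose at both (0.25 ± 0.07, adjusted p = 0.0457, and 0.43 ± 0.07, adjusted p = 0.00236). Ptpn11, a phosphatase gene of the pathway, rose at 6 weeks (0.41 ± 0.09, adjusted p = 0.0220). Grb2, the adaptor that links receptors to Ras, rose at 11 months (0.62 ± 0.06, adjusted p = 0.000196), and Map2k2, which encodes an ERK-activating kinase, fell by 0.46 ± 0.08 (adjusted p = 0.00341). Of 16 measured ERK feedback and target genes 2 rose and 1 fell at 6 weeks (18.8%): the immediate-early genes Ier3 (1.37 ± 0.36, adjusted p = 0.0376) and Ier2 (0.63 ± 0.13, adjusted p = 0.0177), and Etv1 (-0.37 ± 0.08, adjusted p = 0.0187). At 11 months 2 were called (12.5%), Etv5 (0.43 ± 0.06, adjusted p = 0.00101) and Spry2 (0.23 ± 0.07, adjusted p = 0.0463), a transcription factor and an inhibitor induced by FGF signalling. The other 14 did not pass the test at that age. The list medians were 0.34 at 6 weeks (0.06 to 0.41 over the arrays) and 0.13 at 11 months (-0.35 to 0.21). At an unadjusted p below 0.05 in limma there were 8 genes at 6 weeks and 6 at 11 months.

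Heparan sulfate proteoglycans, which hold FGFs at the cell surface, had 2 of 10 measured genes higher and 3 lower at 6 weeks (50%), and 5 higher and 2 lower at 11 months (70%). The glypican gene Gpc4 (0.63 ± 0.15 and 0.72 ± 0.15) and the syndecan gene Sdc2 (0.52 ± 0.08 and 0.69 ± 0.08) rose at both ages, with adjusted p = 0.0316 and 0.00618 at 6 weeks and 0.00905 and 0.000423 at 11 months. Hspg2, which encodes perlecan, rose at 11 months (0.80 ± 0.10, adjusted p = 0.000643). Agrn, which encodes agrin, fell at both ages (-0.46 ± 0.12, adjusted p = 0.0362, and -0.54 ± 0.12, adjusted p = 0.00935). Gpc1 fell by 1.30 ± 0.29 at 6 weeks (adjusted p = 0.0238), and Sdc4 by 1.56 ± 0.42 at 11 months (adjusted p = 0.0229).

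Genes of the routes known to induce Fgf21 were mixed. Of 19 measured genes of the integrated stress response 3 were higher and 2 lower at 6 weeks (26.3%), and 7 higher and 6 lower at 11 months (68.4%), with medians of -0.029 and 0.0054. Atf4 rose at 6 weeks (0.68 ± 0.12, adjusted p = 0.0122) and stood at -0.07 ± 0.12 at 11 months (adjusted p = 0.711). Psat1, a serine synthesis enzyme and ATF4 target, rose at both ages (2.06 ± 0.15, adjusted p = 0.000709, and 3.91 ± 0.15, adjusted p = 9.99e-06), and Phgdh at 11 months (3.09 ± 0.18, adjusted p = 3.92e-05). Cth, a cysteine synthesis enzyme gene, fell by 1.02 ± 0.19 at 6 weeks (adjusted p = 0.0131) and rose at 11 months (0.64 ± 0.19, adjusted p = 0.0323). Shmt2, of mitochondrial serine metabolism, fell at both ages (-0.52 ± 0.08, adjusted p = 0.00794, and -0.64 ± 0.08, adjusted p = 0.000922). Chac1, a glutathione-degrading enzyme gene, rose at 11 months (1.04 ± 0.23, adjusted p = 0.00998). Trib3, a stress-induced pseudokinase gene, fell by 1.10 ± 0.27 at 11 months (adjusted p = 0.0162). Among 9 transcription factor genes linked to Fgf21, 3 were higher and none lower at 6 weeks (33.3%), and 1 higher and 4 lower at 11 months (55.6%). At 6 weeks Mlxipl, which encodes the carbohydrate response factor ChREBP, rose by 0.73 ± 0.15 (adjusted p = 0.0177) beside Atf4 and Rora (0.49 ± 0.07, adjusted p = 0.00643). At 11 months Ppara fell by 2.09 ± 0.44 (adjusted p = 0.00862), Ppargc1a by 1.44 ± 0.16 (adjusted p = 0.000479) and Atf2 by 0.87 ± 0.08 (adjusted p = 0.000219), and Rora rose (0.70 ± 0.07, adjusted p = 0.000343). The part of these genes in the Fgf21 values was not tested.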

How the data were processed

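RNA of knockout and wild-type brown fat was hybridised with exchanged dyes. Each deposited scanner table gives, per the file headers, foreground (mean) and background (median) intensity of every spot from Agilent Feature Extraction 10.5.1.1 (6 weeks) and 10.10.1.1 (11 months), and a log10 ratio of Cy5 over Cy3 computed by that software. The deposited value table holds log2 ratios whose processing is not given beyond limma, per the submitters' processing notes. Matched by spot, they correlated with the knockout-over-wild-type ratios computed here at r = 0.885 to 0.978, the lowest on 11-month-old array 3.

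Intensities were background-corrected with normexp (offset 50) and loess-normalized within arrays in limma 3.58.1 (R 4.3.3). Non-uniform or outlier spots were dropped (131 to 247 per array), and a probe's spots averaged. Probes well above background in at least 4 of 16 channels and measured on at least 3 arrays per age were kept. One limma model of the 8 arrays had a coefficient per age and 1 for dye (5 residual degrees of freedom), with p-values adjusted over all kept probes. Channel levels were Aquantile-scaled. The model was tested on simulated data. For each list, the text names at each age up to 4 called genes with the largest change. Alternatives were other background corrections, scalings, filters and fits, a replicate block, and single arrays left out. Members and lists were chosen with earlier results of these data known.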

Additional observations from a re-analysis of the deposited data

Results flagged for a closer look

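The difference between ages passed the test for 5 probes, each given as the log2 ratio at 11 months minus that at 6 weeks: Fgf1 (A_55_P2047188) at -0.95, Fgf1 (A_52_P538673) at -0.36, Fgf10 at 0.78, Fgfr1 (A_55_P2057777) at 1.14 and Fgfr1 (A_55_P1967022) at 0.73. In 3 of 30 sets of 4 ratios, 1 array stood apart from the others by Dixon's criterion, which chance gives in about 1 of 20 sets. These were Fgf2 on 11-month-old array 3 at 0.064, against 0.29 to 0.33 on the others; Fgf9 on 6-week-old array 1 at -0.88, against -1.20 to -1.17; and Fgf13 on 6-week-old array 3 at -0.24, against 0.01 to 0.02.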

How the results depend on the processing

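Over the settings tried, the fitted values of the member probes stayed on their side of the threshold in 711 comparisons with the reported value, gained a call in 27 and lost one in 75. The sign differed in 19 of the 711, among them Fgf21 at 11 months (-0.08 with median centring), and in none of these was the value called under either setting. Calls rested on 4 arrays per age: leaving out 1 array gave 0 to 5 member probes at 6 weeks, 5 to 8 at 11 months and 2 to 5 for the difference, and 1481 to 5393, 5924 to 9214 and 2444 to 3834 of all probes. The 0 came without 6-week-old array 3, where 4 member probes had an unadjusted p below 0.05. Median centring called 2 member probes at 6 weeks and 0 for the difference (6 at an unadjusted p below 0.05 in limma), and 1229, 5940 and 598 of all probes. The share of higher calls was then 71.1%, 72.0% and 59.7%, against 57.6%, 51.4% and 44.8%. The scanner software's ratio called 2838 of all probes at 6 weeks. With 1 probe per gene 3 of 10 member probes were called for the difference. The reported fit called 5 of 15, and 17.6% of all probes. Without the dye coefficient 5 of 15 member probes were called at 11 months, where the reported fit called 8, and 33.8% of all probes. For the difference 3 member probes were then called, and 3002 of all probes. Without 6-week-old arrays 2 and 4, whose muscle medians were the largest in size (chosen after seeing the data), 501 of all probes and 0 members were called at 6 weeks (4 members at an unadjusted p below 0.05), and 594 and 1 for the difference.

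Whether the replicate numbers pair the arrays could not be decided, because same-numbered arrays had opposite dye orientation at the 2 ages. Their deviations from the group means correlated at -0.19 to -0.05, values that a dye effect lowers. After removal of the shared dye coefficient they correlated at 0.18 to 0.46, which the opposite dyes raise by construction. Deviations from the mean of arrays of the same age and dye correlated at -0.06 to 0.09. With a replicate block 5, 8 and 6 member probes and 5309, 9418 and 5138 of all probes were called; the Fgf21 difference (adjusted p = 0.0306), Fgfr1 A_55_P2057777 at 6 weeks (adjusted p = 0.0459) and Fgfr3 A_55_P1996578 at 11 months (adjusted p = 0.0450) gained a call, and Fgfr2 A_55_P2094881 at 11 months lost it (adjusted p = 0.0617). Signal over background limits Fgf21, Fgf9, Fgf2 and Fgf13, whose sizes depend on the background correction.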
